A study of Homo sapiens with 12 samples.

Results

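The genes described here carry out MHC class I antigen presentation. The set was chosen by name and holds 9 members, HLA-B, HLA-C, B2M, TAP1, TAP2, TAPBP, PSMB8, PSMB9 and NLRC5, of the 56364 gene symbols found in at least 1 of the 3 expression tables. All 9 were listed in each of the 3 tables and stood at 1 FPKM or above in all 12 libraries, so that none was lost to the filter on low values. RNA had been sequenced from HCC70 and MDA-MB468, established cell lines of triple-negative breast cancer (TNBC), after 24 h of treatment, and each condition is a single library. The treatments of HCC70 were vehicle, 1.25 or 2.5 μM of XY018 (an antagonist of the nuclear receptor RORγ), 1.25 μM of atorvastatin (ATV, a statin that blocks cholesterol synthesis), and 1.25 μM of XY018 together with 1.25 μM of ATV. Those of MDA-MB468 were the same and, in a separate table with a vehicle of its own, 2.5 μM of GSK805, which also antagonizes RORγ. The study asked which genes the antagonists and the statin change in these cells.

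Cells show fragments of their own proteins on class I molecules, where CD8+ T cells inspect them. A proteasome whose catalytic subunits have been exchanged for the interferon-inducible PSMB8 and PSMB9 cuts the peptides, the TAP1 and TAP2 heterodimer carries them into the endoplasmic reticulum, and tapasin (TAPBP) holds the empty class I molecule beside the transporter until a peptide is bound. The molecule itself is a polymorphic heavy chain, such as HLA-B or HLA-C, paired with the invariant light chain B2M. NLRC5 is a transactivator of class I promoters, and loss of this machinery is a known route by which tumor cells escape T cells.

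Levels are given as FPKM, the fragments of a gene divided by the transcript's length and by the library's mapped fragments. A treated library was set against vehicle from the same table by the log2 ratio of FPKM, with 0.1 added to both. Genes had to reach 1 FPKM in either library of the pair, and a gene was called lower or higher at 1.5-fold (0.585 on the log2 scale). With 1 library per condition no test could be made, and differences between cultures are not covered. The depth, estimated from the spacing of low FPKM values, was 9120000 to 10200000 fragments for the HCC70 libraries, 17700000 to 19800000 for those of MDA-MB468 with XY018 and ATV, and 8360000 to 8660000 for the GSK805 pair. From these depths each ratio was given a 95% counting interval (exact Clopper-Pearson), which is approximate and covers counting error only. Of 9 epithelial markers 9, 7 to 8 and 9 were at 1 FPKM or above in the 3 tables in that order. Of 9 leukocyte markers 2, 2 to 3 and 1 were, and PTPRC, which defines leukocytes, did not exceed 1.06 FPKM in any library. The summed level of both lists moved with treatment. The leukocyte sum, of which CD14 was the largest part, went from 179 FPKM in HCC70 vehicle to 426 FPKM with 2.5 μM XY018, from 20.2 to 10.9 FPKM in MDA-MB468 and from 93.8 to 52.6 FPKM with GSK805. The epithelial sum went from 2799 to 2072 FPKM, from 3058 to 1926 FPKM and from 5784 to 4187 FPKM in the same comparisons. Not every epithelial marker fell. In HCC70, CDH1 rose from 168 to 184 FPKM and KRT18 from 247 to 262 FPKM, and the other markers fell. In MDA-MB468 with XY018 all fell but KRT6A, at 0 and 0.09 FPKM. With GSK805 all fell but CDH1, which rose from 43.6 to 58.0 FPKM. The part of the 2 sums in the results was not tested. Of ESR1 and PGR, the hormone receptors absent from TNBC, PGR was at 0 FPKM or not listed in every library. ESR1 stood at 0.37 to 0.64 FPKM in HCC70 and 0.43 to 0.67 FPKM in MDA-MB468 with XY018 and ATV. In the GSK805 pair it went from 1.77 to 5.67 FPKM, and the cause was not tested. The libraries are bulk RNA from cultures of established cell lines, and they do not show whether a level moved in all cells or in some of them.

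Most class I genes kept a level within 1.5-fold of vehicle, and the calls all belonged to TAP2 in MDA-MB468. Over the 9 comparisons, 3 of 81 member ratios were called, each of them lower, and none was called higher. In HCC70 no member was called in either direction. The share of all genes called lower there was 2.64% with 1.25 μM XY018, 3.26% with 2.5 μM XY018, 1.32% with ATV and 2.93% with both, and the share called higher was 1.93%, 2.62%, 2.22% and 4.38% in the same order. In MDA-MB468, TAP2 was called lower with 2.5 μM XY018, with XY018 and ATV together and with GSK805, 1 of 9 members each time, beside 14.5%, 12.2% and 16.6% of all genes called lower and 14.1%, 13.1% and 17.6% called higher. With 1.25 μM XY018 no member was called, against 8.38% of all genes lower and 9.73% higher, and with ATV alone none was, against 0.803% lower and 1.37% higher. At the background of each comparison, 1 call among 9 genes is not a result about the set.

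Below the threshold the member medians of the 2 cell lines differed in sign with XY018 alone, a difference that was not tested, and had the same sign with both compounds. In HCC70 the median of the members was 0.12 with 1.25 μM XY018 and 0.11 with 2.5 μM, where the medians of all genes were -0.01 and -0.02, and 8 and then 9 of 9 members were above vehicle. In MDA-MB468 the corresponding medians were -0.14 and -0.20, where those of all genes were 0.01 and 0.00, and 8 of 9 members were below vehicle at each dose. With GSK805 the median was -0.24, with 8 of 9 members below vehicle and a median of all genes of 0.01. With XY018 and ATV together the median was 0.08 in HCC70, with 6 of 9 members above vehicle, and 0.03 in MDA-MB468, with 5 of 9 above. The libraries at the 2 doses share a vehicle, so their agreement in sign is not a repeat measurement. ATV alone left the median at -0.03 in HCC70 and -0.02 in MDA-MB468, with 4 of 9 members above vehicle in each line.

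**Figure D1:**
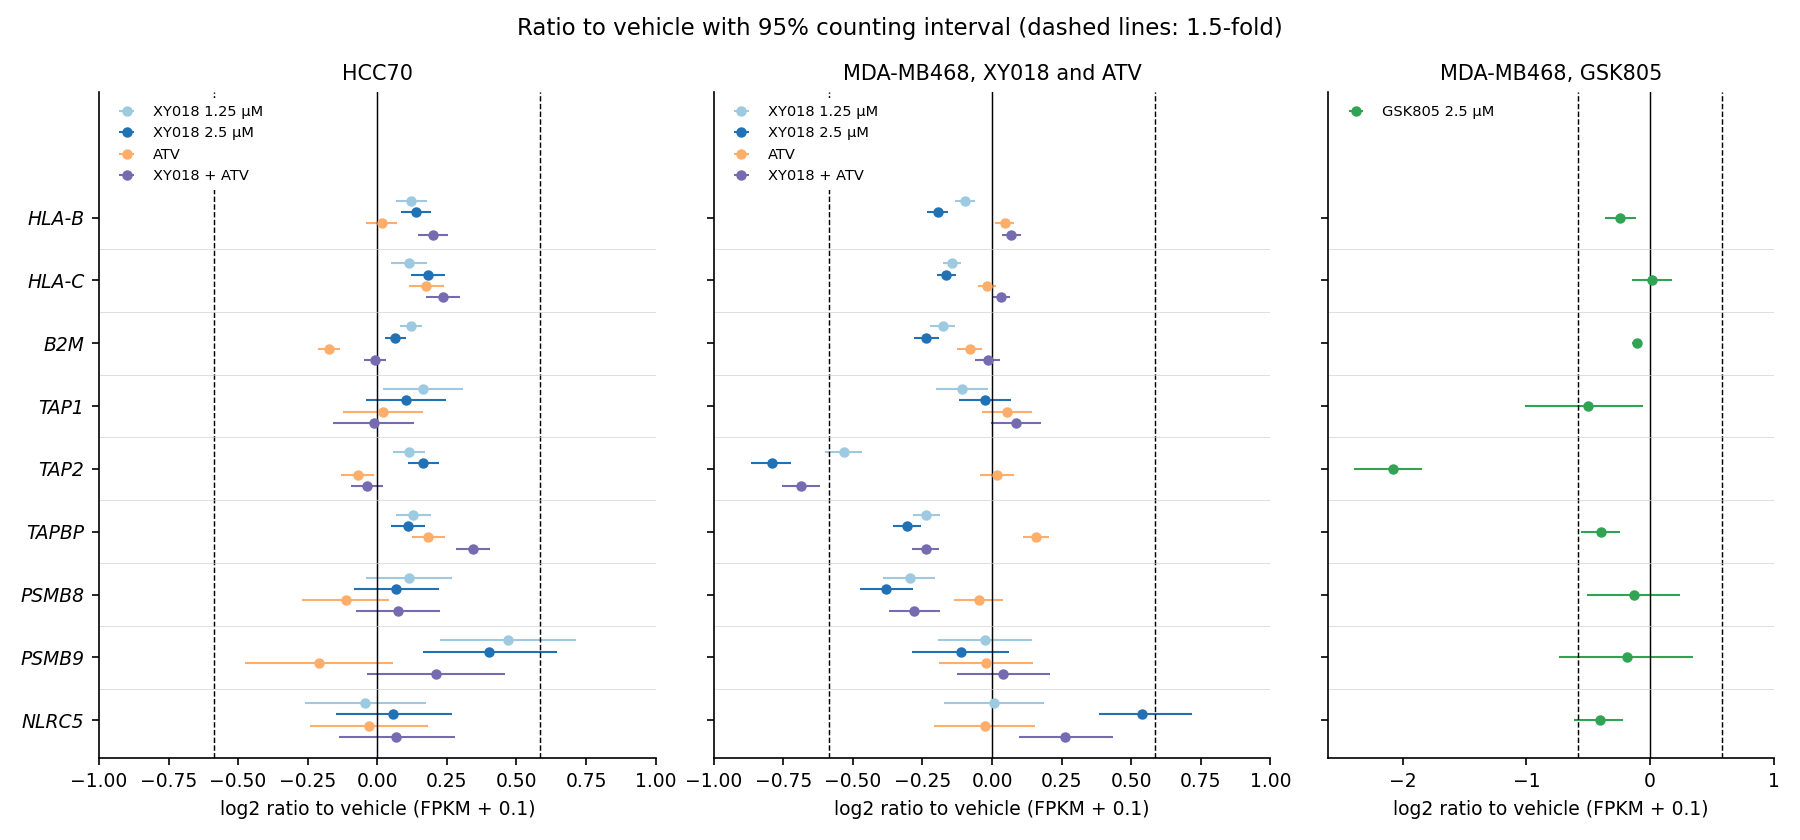
Log2 ratio of treated to vehicle FPKM (horizontal axis, 0.1 added) for each of the 9 genes (vertical axis) in HCC70, in MDA-MB468 with XY018 and ATV, and in MDA-MB468 with GSK805. Points are single libraries, bars are 95% counting intervals and dashed lines mark 1.5-fold. TAP2 is past the lower line at -0.79, -0.69 and -2.08, and the XY018 points of HCC70 lie mostly to the right of 0 while those of MDA-MB468 lie mostly to the left.

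**Figure D2:**
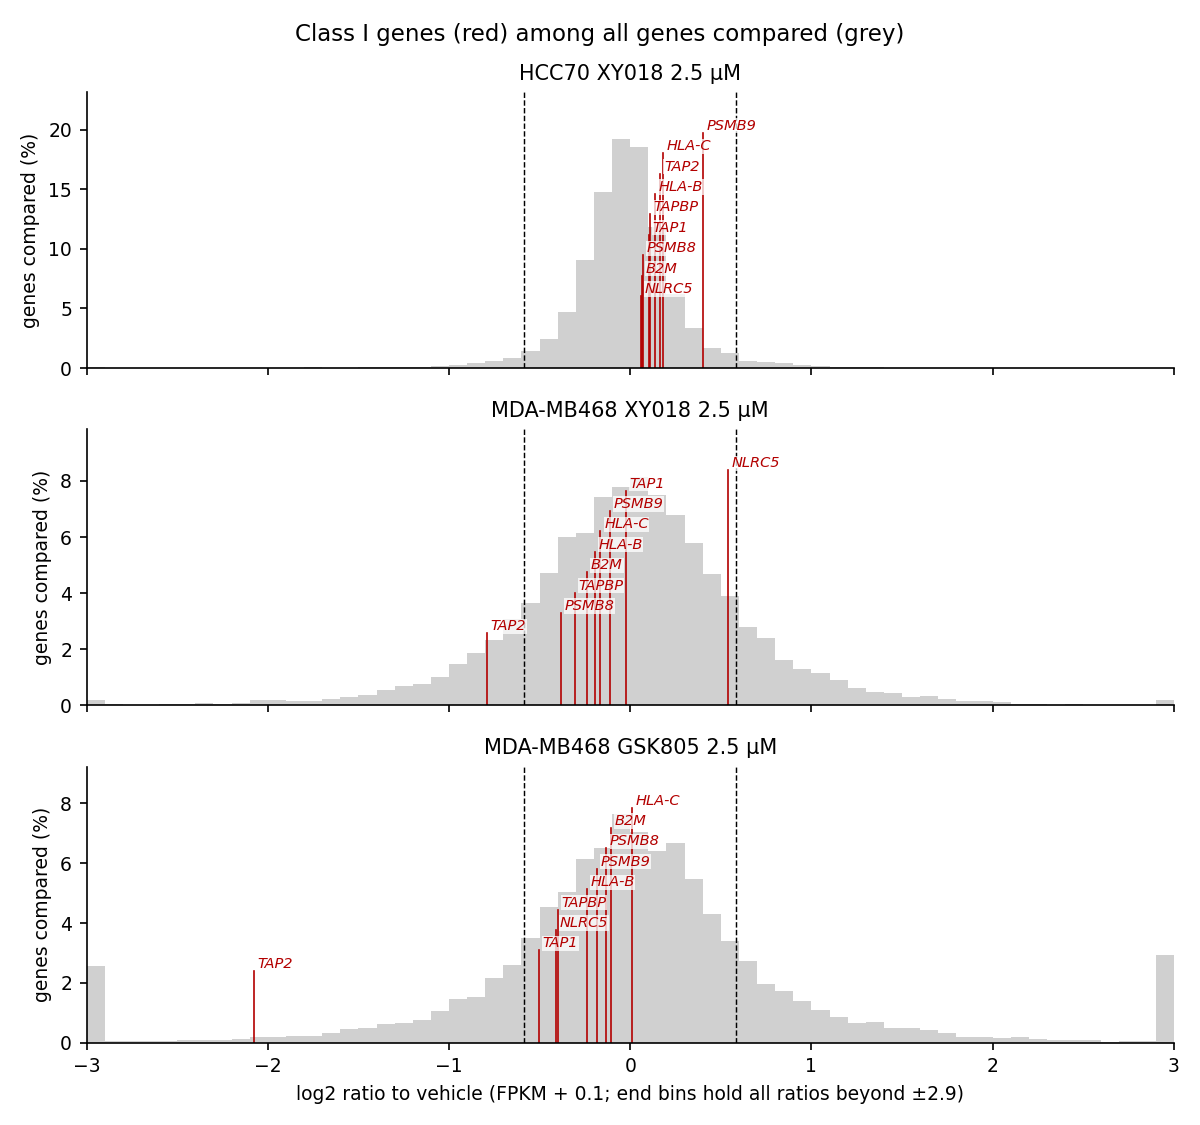
Share of all genes compared (vertical axis, %) by log2 ratio to vehicle (horizontal axis, FPKM with 0.1 added) for 2.5 μM XY018 in HCC70, and, in MDA-MB468, 2.5 μM XY018 or 2.5 μM GSK805, with the members marked in red (line height has no meaning). In HCC70 all 9 members stand between 0.06 and 0.40, and in the GSK805 comparison TAP2 at -2.08 stands apart from the other 8 members.

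In every vehicle library the chains of the class I molecule were the most abundant members, and NLRC5 or TAP1 the least. In HCC70 vehicle the order by FPKM was B2M, HLA-B, HLA-C, TAPBP, TAP2, PSMB8, TAP1, PSMB9 and NLRC5, from 1223 to 5.55 FPKM. Over the 5 HCC70 libraries the ranges of TAP1 (29.3 to 33.1 FPKM) and PSMB9 (22.9 to 36.6 FPKM) overlapped, and those of the other neighbors in this order did not. In the MDA-MB468 vehicle of the XY018 experiment the order was HLA-C, B2M, HLA-B, TAPBP, PSMB8, TAP2, TAP1, PSMB9 and NLRC5, from 543 to 3.93 FPKM. Among neighbors in this order, the ranges of B2M (401 to 472 FPKM) and HLA-B (404 to 485 FPKM) overlapped, as did those of TAPBP and PSMB8 and of TAP2 and TAP1. HLA-C and HLA-B, and TAP2 and PSMB9, which are not neighbors, overlapped as well. The vehicle of the GSK805 experiment, from the same line, ran from B2M at 1353 FPKM to TAP1 at 4.41 FPKM. Because the tables were normalized separately and list different annotations, levels are not directly comparable between them.

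**Figure D3:**
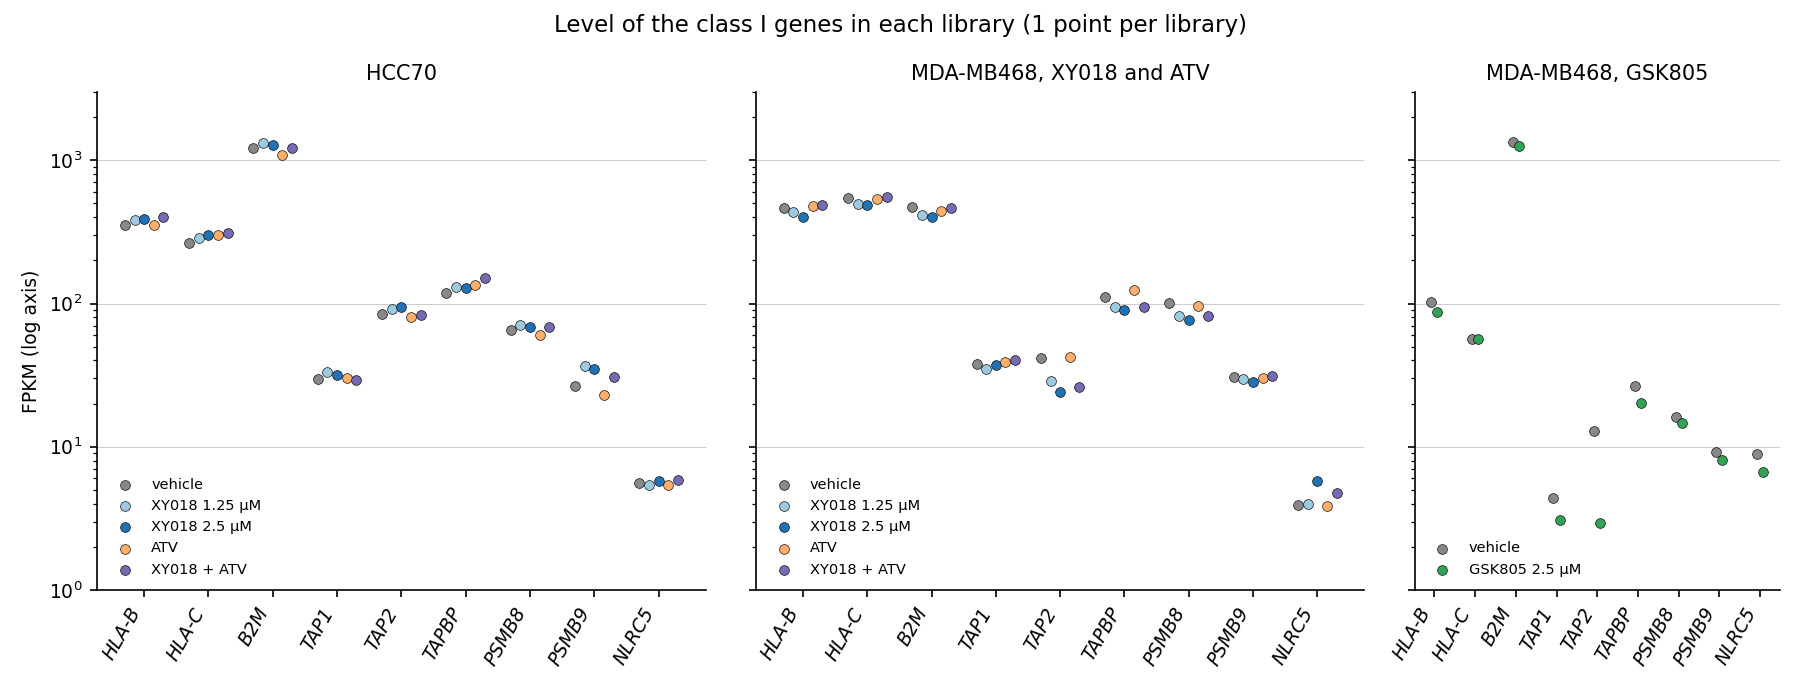
FPKM (vertical axis, log scale) of the 9 class I genes in the 12 libraries, 1 point per library, in the 3 separately normalized tables. The points of a gene lie close together within a table, with TAP2 in MDA-MB468 (24.1 to 42.2 FPKM with XY018 and ATV, 2.95 and 12.8 FPKM in the GSK805 pair) as the widest spread.

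The heavy chain genes lie in the class I region of chromosome 6 (GRCh37, HLA-B at chr6:31321649-31334844 and HLA-C at chr6:31236526-31239907, both on the minus strand). They are highly polymorphic and share sequence with each other and with other class I genes, so reads may have been assigned to the wrong gene or lost against the reference, and their values are uncertain. In HCC70, HLA-B stood at 352 FPKM with vehicle, 383 and 387 FPKM with 1.25 and 2.5 μM XY018, 356 FPKM with ATV and 404 FPKM with both. All 3 libraries with XY018 were above the 2 without it. HLA-C stood at 265, 287, 301, 299.7 and 313 FPKM in the same order, with vehicle the lowest of the 5. The log2 ratios at 2.5 μM were 0.14 (counting interval 0.09 to 0.19) for HLA-B and 0.18 (0.12 to 0.25) for HLA-C, which were above those of 78.7% and 83.3% of all genes.

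In MDA-MB468 the heavy chains were lower with XY018 alone and back at or above vehicle with both compounds. HLA-B stood at 463 FPKM with vehicle, 433 and 404 FPKM with 1.25 and 2.5 μM XY018, 478 FPKM with ATV and 485 FPKM with both. HLA-C stood at 543, 492, 485, 536 and 555 FPKM in the same order. The 2 libraries with XY018 alone were the lowest for both genes. At 2.5 μM the log2 ratio was -0.20 (-0.23 to -0.16) for HLA-B and -0.16 (-0.20 to -0.13) for HLA-C, both well inside the spread of all genes. With GSK805, HLA-B went from 103 to 86.9 FPKM (-0.24, -0.36 to -0.12), and HLA-C was at 56.3 and 56.8 FPKM (0.01, -0.15 to 0.17).

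B2M, on chromosome 15 (GRCh37, chr15:45003556-45011049, plus strand), is needed for any heavy chain to reach the cell surface. In HCC70 it stood at 1223 FPKM with vehicle, 1329.9 and 1279.8 FPKM with 1.25 and 2.5 μM XY018, 1085 FPKM with ATV and 1217 FPKM with both. ATV gave the lowest library, at -0.17 (-0.21 to -0.13). In MDA-MB468 it stood at 472, 417, 401, 446 and 466 FPKM in the same order, with a log2 ratio of -0.24 (-0.28 to -0.19) at 2.5 μM XY018. With GSK805 it was at 1257 FPKM against 1353 FPKM in vehicle, a log2 ratio of -0.11 (-0.15 to -0.06). Within a library the ratio of HLA-B to B2M lay between 0.287 and 0.332 over the HCC70 libraries, lowest with vehicle and highest with both compounds. Over those of MDA-MB468 with XY018 and ATV it lay between 0.981 and 1.07.

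The genes of the peptide transporter lie close together in the class II region of chromosome 6 (GRCh37, TAP2 at chr6:32789610-32806516 and TAP1 at chr6:32812986-32821593, both on the minus strand), on either side of PSMB8. Their products work only as a pair, and they parted in MDA-MB468. The sequences before their RefSeq start sites are printed because TAP2 is the member that was called and TAP1 is its partner. Both are 250 bases ending at the start site, written 5′ to 3′ on the transcribed strand (GRCh38.p14, minus strand, TAP2 at chr6:32838740-32838989 and TAP1, from the upstream of its 2 listed starts, at chr6:32853705-32853954), and capitals mark matches to GAAANNGAA, a core of the interferon response element, on either strand.
TAP2: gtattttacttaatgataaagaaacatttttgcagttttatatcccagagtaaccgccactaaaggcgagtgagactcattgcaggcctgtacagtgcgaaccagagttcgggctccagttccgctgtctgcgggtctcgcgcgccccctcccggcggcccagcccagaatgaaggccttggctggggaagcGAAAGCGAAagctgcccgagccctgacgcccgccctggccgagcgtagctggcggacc
TAP1: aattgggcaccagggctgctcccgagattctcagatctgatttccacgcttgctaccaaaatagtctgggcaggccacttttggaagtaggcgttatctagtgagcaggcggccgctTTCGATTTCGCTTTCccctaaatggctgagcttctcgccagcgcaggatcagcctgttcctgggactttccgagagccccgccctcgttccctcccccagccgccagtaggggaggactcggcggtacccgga
TAP2 holds 1 match, which begins 58 bases before the start. TAP1 holds 2 overlapping matches on the opposite strand, which begin 133 and 127 bases before the start.

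TAP2 fell with the RORγ antagonists in MDA-MB468 and did not fall in HCC70. In MDA-MB468 it stood at 41.7 FPKM with vehicle, 28.8 FPKM with 1.25 μM XY018, 24.1 FPKM with 2.5 μM XY018, 42.2 FPKM with ATV and 25.9 FPKM with both. The 3 libraries with XY018 were all below the 2 without it, and the order followed the dose. The log2 ratios were -0.53 (-0.60 to -0.47) at 1.25 μM, just inside the threshold, -0.79 (-0.87 to -0.72) at 2.5 μM, -0.69 (-0.76 to -0.62) with both and 0.02 (-0.04 to 0.08) with ATV. A ratio as low as that at 2.5 μM was not rare in this comparison, since 8.94% of all genes had a lower one.

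With GSK805, TAP2 went from 12.8 to 2.95 FPKM, a log2 ratio of -2.08 (-2.39 to -1.85), with 3.21% of all genes lower. That share is of 19937 genes whose log2 ratios had an SD of 1.52. With 2.5 μM XY018 in this line it was of 11919 genes with an SD of 0.67, so the shares have different bases. The TAP2 value with GSK805 depends on the entry, because the GSK805 table lists TAP2 in 2 entries and the one higher in vehicle was used. The other entry stood at 1.03 FPKM with vehicle and 1.44 FPKM with GSK805, and the sum of the entries gave -1.63, still called. In HCC70, TAP2 stood at 84.6, 91.6, 94.9, 80.5 and 82.5 FPKM with vehicle, 1.25 μM XY018, 2.5 μM XY018, ATV and both, and the log2 ratio at 2.5 μM XY018 was 0.17 (0.11 to 0.22). The counting intervals for 2.5 μM XY018 in the 2 lines do not overlap, but they leave out differences between cultures. The difference between the lines was not tested. At a threshold of 2-fold only the GSK805 call on TAP2 was left.

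TAP1, the partner subunit, was not called in any comparison. In MDA-MB468 it stood at 37.8 FPKM with vehicle, 35.1 and 37.1 FPKM with 1.25 and 2.5 μM XY018, 39.2 FPKM with ATV and 40.1 FPKM with both, and its log2 ratio at 2.5 μM XY018 was -0.03 (-0.12 to 0.07). In HCC70 it stood at 29.6, 33.1, 31.8, 30.01 and 29.3 FPKM in the same order. With GSK805 it went from 4.41 to 3.08 FPKM, a log2 ratio of -0.50 whose interval, -1.01 to -0.06, is wide at this level. The ratio of TAP2 to TAP1 within a library, which does not depend on how a library was scaled, lay between 2.68 and 2.99 in all 5 HCC70 libraries. In MDA-MB468 it was 1.11 with vehicle and 1.08 with ATV, 0.823 with 1.25 μM XY018, 0.649 with 2.5 μM and 0.646 with both, and in the GSK805 pair it went from 2.9 to 0.958. The GSK805 pair rests on the TAP2 entry higher in vehicle. Summed, the TAP2 entries stood at 13.8 FPKM with vehicle and 4.39 FPKM with GSK805, above TAP1 in both libraries. Cufflinks divides by transcript length, and TAP2 has 3 RefSeq transcripts in the tables that hold accessions, so a change in the transcripts used would also move its FPKM. Transcripts were not measured separately.

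**Figure D4:**
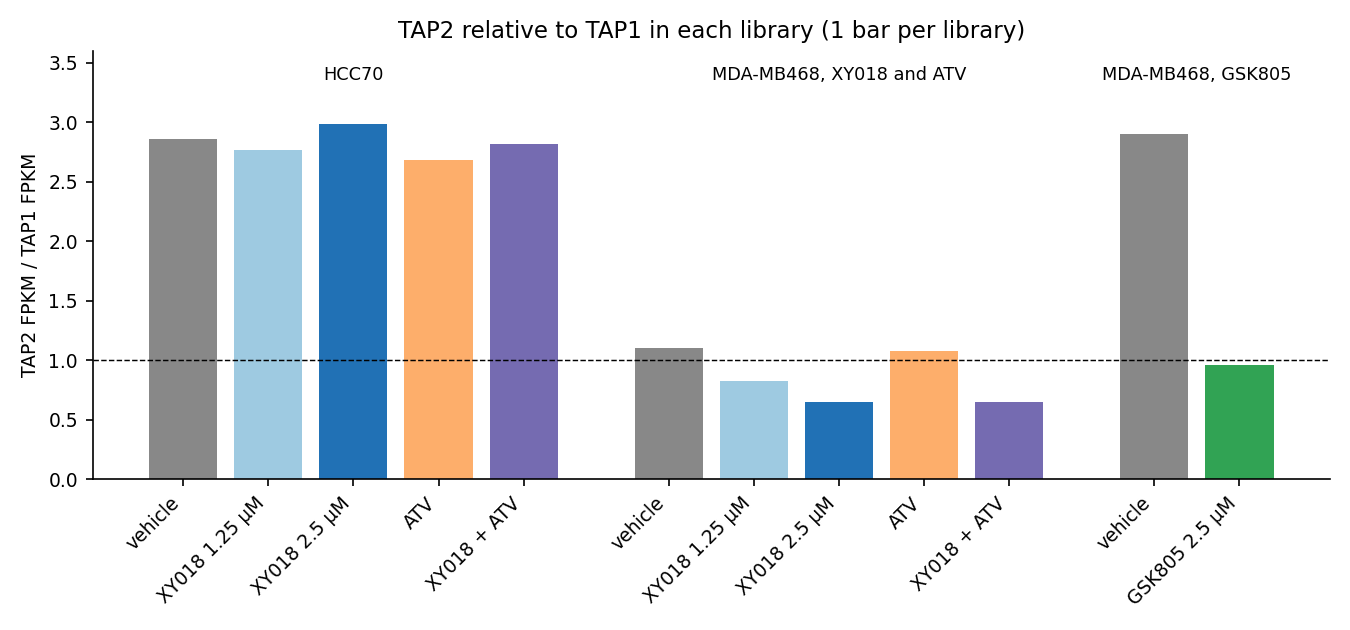
Ratio of TAP2 to TAP1 FPKM (vertical axis, no unit) in each of the 12 libraries (horizontal axis), 1 bar per library, in the 3 tables. The bars of HCC70 stand between 2.68 and 2.99, and in MDA-MB468 the 4 libraries that received XY018 or GSK805 stand below 1 (dashed line), the vehicle and ATV libraries above it. The GSK805 pair is drawn with the TAP2 entry higher in vehicle. With the TAP2 entries summed, the GSK805 library would stand above 1.

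Tapasin had opposite signs in the 2 lines with XY018. In HCC70, TAPBP (GRCh37, chr6:33267471-33282061, minus strand) stood at 119 FPKM with vehicle, 130.2 and 128 FPKM with 1.25 and 2.5 μM XY018, 135 FPKM with ATV and 151 FPKM with both. Vehicle was the lowest library and both compounds together the highest, at 0.34 (0.28 to 0.40). In MDA-MB468 it stood at 111, 94.5, 90.1, 124 and 94.3 FPKM in the same order, so that the 3 libraries with XY018 were the lowest and ATV the highest. The log2 ratio at 2.5 μM XY018 was 0.11 (0.05 to 0.17) in HCC70 and -0.30 (-0.36 to -0.25) in MDA-MB468, and with GSK805, where TAPBP went from 26.5 to 20.1 FPKM, it was -0.40 (-0.56 to -0.24). None of these passed 1.5-fold. ATV alone gave 0.18 (0.12 to 0.25) in HCC70 and 0.16 (0.11 to 0.20) in MDA-MB468, with both intervals above 0.

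Among the immunoproteasome genes, PSMB9 was higher with XY018 in HCC70 and PSMB8 lower with XY018 in MDA-MB468, neither by 1.5-fold. In HCC70, PSMB9 (GRCh37, chr6:32811913-32827628, plus strand) stood at 26.4 FPKM with vehicle, 36.6 and 34.9 FPKM with 1.25 and 2.5 μM XY018, 22.9 FPKM with ATV and 30.6 FPKM with both. The 3 libraries with XY018 were above the 2 without it, with log2 ratios of 0.47 (0.23 to 0.71), 0.40 (0.17 to 0.65) and 0.21 (-0.04 to 0.46). The value at 1.25 μM was the highest of the 9 members and above 96.7% of all genes. Its constitutive counterpart PSMB6, which PSMB9 replaces in the immunoproteasome, was below vehicle in all 4 treated libraries, and the ratio of PSMB9 to PSMB6 FPKM was 0.408 with vehicle, 0.448 with ATV, and 0.674, 0.652 and 0.645 in the libraries with XY018. In MDA-MB468, PSMB9 stood between 28.2 and 31.3 FPKM in all 5 libraries and every interval held 0. With GSK805 it went from 9.19 to 8.07 FPKM, and the interval of -0.74 to 0.35 held 0. PSMB9 overlaps TAP1 and PSMB8, which are on the other strand, in the GENCODE annotation, and the library kit is not described as keeping the strand, so reads in the shared bases cannot be told apart.

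PSMB8 (GRCh37, chr6:32808494-32812456, minus strand) stood in MDA-MB468 at 100.1 FPKM with vehicle, 81.5 and 76.9 FPKM with 1.25 and 2.5 μM XY018, 96.8 FPKM with ATV and 82.5 FPKM with both. The 3 libraries with XY018 were again the lowest, with log2 ratios of -0.30 (-0.39 to -0.20), -0.38 (-0.47 to -0.28) and -0.28 (-0.37 to -0.19). In HCC70 it stood at 65.1, 70.4, 68.2, 60.1 and 68.6 FPKM in the same order, and all 4 intervals held 0. With GSK805 it was at 16.2 and 14.8 FPKM, with an interval of -0.51 to 0.24. The ratio of PSMB8 to its counterpart PSMB5 was 1.77 with vehicle and 1.73 with ATV in MDA-MB468, and 1.45, 1.42 and 1.55 in the libraries with XY018.

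NLRC5, the transactivator, was above vehicle with 2.5 μM XY018 in MDA-MB468, where the other members were below it. In MDA-MB468, NLRC5 (GRCh37, chr16:57023397-57117443, plus strand) stood at 3.93 FPKM with vehicle, 3.95 and 5.76 FPKM with 1.25 and 2.5 μM XY018, 3.86 FPKM with ATV and 4.73 FPKM with both. It was the only member above vehicle at 2.5 μM, at 0.54 (0.38 to 0.72), just under the threshold, while the 8 others were below. In HCC70 it stayed between 5.38 and 5.82 FPKM. With GSK805 it went the other way, from 8.90 to 6.68 FPKM, a log2 ratio of -0.41 (-0.61 to -0.22). Over the 12 libraries, centered within each table, NLRC5 had a Pearson r of 0.03 with the mean of the other 8 members, against 0.30 for HLA-C and 0.48 to 0.84 for the rest. These are descriptions over libraries that share a vehicle, in which the GSK805 pair has the largest deviations.

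Between the doses of XY018 most members changed little, and in MDA-MB468 TAP2 and NLRC5 stood apart from the other 7. The log2 ratio of the 2.5 μM to the 1.25 μM library ranged from -0.07 to 0.10 over the 9 members in HCC70. In MDA-MB468 it ranged from -0.26 to 0.53. TAP2 was lowest at -0.26 (-0.34 to -0.18), which was not rare, since 10.8% of all genes had a lower ratio. NLRC5 was highest at 0.53 (0.37 to 0.71), above 98.7% of all genes. The other 7 members lay between -0.10 and 0.08.

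Adding ATV to 1.25 μM XY018 was followed by higher heavy and light chain values in MDA-MB468. Against XY018 alone at 1.25 μM, the library with both compounds had log2 ratios of 0.17 (0.13 to 0.20) for HLA-B, 0.18 (0.14 to 0.21) for HLA-C, 0.16 (0.11 to 0.21) for B2M and 0.19 (0.10 to 0.29) for TAP1. NLRC5 had the largest, 0.25 (0.09 to 0.43), and TAP2 went the other way at -0.15 (-0.23 to -0.08). The median of the 9 was 0.16, against -0.02 for all genes. In HCC70 the same contrast had a median of -0.04, with TAPBP highest at 0.21 (0.15 to 0.27) and PSMB9 lowest at -0.26 (-0.49 to -0.03). No member reached 1.5-fold against XY018 alone in either line. Against ATV alone in MDA-MB468, 6 of 9 members were above and 3 below, with a median of 0.03. TAP2 was past 1.5-fold there, at -0.70 (-0.77 to -0.64), where 8.19% of all genes had a lower ratio. Against ATV alone in HCC70 the members ranged from -0.03 to 0.42, with a median of 0.16.

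Other genes of the pathway and of its control were listed in 8 groups with 55 genes, of which 54 passed the filter in HCC70, 44 in MDA-MB468 with XY018 and ATV and 47 with GSK805. With 2.5 μM XY018, 1 of 54 was lower and none higher in HCC70, where 3.26% of all genes were lower and 2.62% higher. In MDA-MB468, 6 of 44 were lower and 5 higher, where 14.5% of all genes were lower and 14.1% higher. With GSK805, 6 of 47 were lower and 2 higher, where 16.6% of all genes were lower and 17.6% higher. In HCC70 the counts lower and higher were 1 and 0 with 1.25 μM XY018, where 2.64% of all genes were lower and 1.93% higher. They were 0 and 1 with ATV (1.32% and 2.22% of all genes) and 1 and 0 with both (2.93% and 4.38%). In MDA-MB468 they were 5 and 0 with 1.25 μM XY018, where 8.38% of all genes were lower and 9.73% higher. They were 0 and 0 with ATV (0.803% and 1.37% of all genes) and 4 and 3 with both (12.2% and 13.1%). No gene of the lists passed 1.5-fold the same way in all 3 antagonist comparisons at 2.5 μM.

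Of 6 genes for loading and trimming of peptides, TAPBPL, a tapasin relative that edits the bound peptide, was called in both MDA-MB468 comparisons at 2.5 μM. It went from 3.49 to 1.97 FPKM with XY018 (-0.79, -1.30 to -0.38) and from 7.39 to 2.35 FPKM with GSK805 (-1.61, -2.29 to -1.08), and from 33.4 to 37.6 FPKM with XY018 in HCC70. ERAP2, an aminopeptidase that trims peptides in the endoplasmic reticulum, had the largest ratio of this group in HCC70, 0.49 (0.36 to 0.64), and was called lower with GSK805 at -0.93 (-1.69 to -0.34), from 1.41 to 0.691 FPKM. Of PSMB10, the further immunoproteasome subunit, and the proteasome activator genes PSME1 and PSME2, only PSMB10 was called, lower with GSK805 at -0.71 (-0.94 to -0.48), where its level went from 61.6 to 37.5 FPKM. The largest ratios of this group were 0.17 for PSMB10 in HCC70 and -0.41 for PSME2 in MDA-MB468 with 2.5 μM XY018.

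PSMB6 had the largest ratio of the 3 constitutive subunits in each antagonist comparison, at -0.28 in HCC70, -0.09 with XY018 in MDA-MB468 and -0.54 with GSK805, and it was not called. Of 7 alpha subunits, PSMA4 was called with XY018 in MDA-MB468 at -0.79 (-0.86 to -0.73) and had -0.27 in HCC70, and PSMA2 was called with GSK805 at -0.72 (-0.85 to -0.58).

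Of 5 other class I heavy chain genes none was called at 2.5 μM. MR1, which presents vitamin metabolites to MAIT cells, had the largest ratio of this group in both MDA-MB468 comparisons at 2.5 μM. It was 0.55 (0.41 to 0.70) with XY018 and 0.37 (0.23 to 0.52) with GSK805.

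Among 14 transcription factors that act at class I promoters, IRF1 had the largest ratio with 2.5 μM XY018 in both lines. IRF1 binds the interferon response element. In MDA-MB468 it stood at 14.3 FPKM with vehicle, 20.7 and 27.1 FPKM with 1.25 and 2.5 μM XY018, 14.7 FPKM with ATV and 35.8 FPKM with both. The library with both compounds was the highest, at 1.32 (1.22 to 1.43), and 2.5 μM XY018 gave 0.91 (0.81 to 1.03). In HCC70, IRF1 was at 21.96 and 29.4 FPKM with vehicle and 2.5 μM XY018 (0.42, 0.28 to 0.56), and with GSK805 it was at 34.6 and 33.7 FPKM. In MDA-MB468 with 2.5 μM XY018, STAT2 at 0.65 and the NF-κB subunit RELA at 0.72 were also called higher, and IRF9 at -0.65 and NFYB at -0.84 lower. CIITA, the class II transactivator, was called higher with GSK805 at 2.12 (1.95 to 2.79), between 0.441 and 2.25 FPKM, and the DNA-binding subunit RFXAP lower at -0.95 (-1.70 to -0.33).

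Of 8 interferon receptors, kinases and their inhibitor, the interferon-γ receptor chain IFNGR1 was called lower with 2.5 μM XY018 in both lines. In HCC70 it stood at 92.2 FPKM with vehicle, 59.9 and 52.4 FPKM with 1.25 and 2.5 μM XY018, 83.7 FPKM with ATV and 50.2 FPKM with both. In MDA-MB468 it stood at 88.5, 62.6, 51.8, 97.5 and 64.7 FPKM in the same order. All 3 libraries with XY018 were below the 2 without it in each line, and the log2 ratios at 2.5 μM were -0.81 (-0.92 to -0.70) and -0.77 (-0.86 to -0.69). With GSK805 the sign was opposite, 82.2 and 104.5 FPKM (0.35, 0.24 to 0.45). The type I interferon receptor chain IFNAR2 had the largest ratio of the group with 2.5 μM XY018 in MDA-MB468, -0.95 (-1.10 to -0.82), where the kinases JAK1 and TYK2 were called higher at 0.59 and 0.69. The kinase JAK2 had the largest with GSK805, 1.46 (1.20 to 1.80), from 2.21 to 6.25 FPKM.

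Class II genes were expressed in HCC70 and nearly absent from MDA-MB468, where 1 of 9 passed the filter in each table. HLA-DPB1 had the largest ratio with 2.5 μM XY018 in HCC70, -0.42, HLA-DMA was at -0.12 in MDA-MB468, and CD74, the invariant chain, at 0.29 with GSK805, none of them called. HLA-DMA was called lower with XY018 and ATV together in MDA-MB468, at -0.69 (-1.23 to -0.18).

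Among the genes whose pattern was most like the mean of the 9 members over the 12 libraries, centered within each table, were RGS19 (Pearson r = 0.94), HJURP (0.94), RFWD3 (0.93) and RTF1 (0.93), of 2784 genes ranked. The mean profile of the members spans 0.45 on the log2 scale, and 13 genes had an r of 0.9 or above. The libraries share vehicles and the GSK805 pair has the widest deviations, so the likeness is a description.

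RefSeq promoters of 250 bases before to 50 bases after a start were listed for 8 of the 9 members, and 2 members have 2 starts, which gives 10 windows of 35116 in all. The 6 motifs were read on both strands. GAAANNGAA was found in 5 of 10 windows, those of B2M, TAP2, TAPBP, the upstream TAP1 start and the downstream PSMB8 start, and in 8.11% of all promoters. The Y box core ATTGG was in 5 of 10, against 34.6% of all, and TGACG, the core of the cAMP response element, as in the X2 box, in 6 of 10, against 24.6%. The STAT site TTCNNNGAA was in 2 of 10, against 7.66% of all, and the sterol element TCACNCCAC and the ROR element core AGGTCA in 0 of 10, against 1.13% and 13.8%. The upstream TAP1 window and the PSMB9 window share 13 bases, which hold the ATTGG counted in both, and a match is not a binding site.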

How the data were processed

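Single libraries of 12 conditions were analysed. According to the methods and the submitters' processing notes, the authors aligned reads from TruSeq libraries to GRCh37/hg19 (BWA, Bowtie) and used Cufflinks for quantification (versions not given in the sources used here). The deposited tables, 3 in number, hold FPKM that the authors scaled separately in each, and their headers name no unit. From them log2 ratios to the vehicle of the same table were computed with 0.1 added, for genes that reached 1 FPKM in either library of a pair. Where a symbol had several entries, the one highest in vehicle was kept. The fold and depth calculations were tested on simulated data. Fragments behind a ratio were estimated from FPKM, the MANE transcript length and the estimated depth. The length of the transcripts the authors used was not given, so counting intervals are approximate, most of all for TAP2. Coordinates are from GENCODE (GRCh37) and promoters from RefSeq (GRCh38.p14).

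The members, the related lists, the thresholds and the motifs were chosen with earlier results of these data known. The text names all 9 members, the gene of each related list with the largest absolute log2 ratio in each 2.5 μM antagonist comparison, any list gene past 1.5-fold the same way in all 3, and the 5 genes most like the members; some genes that this rule names are not reported here. Also named after their values were seen are STAT2, RELA, IRF9, NFYB, RFXAP, JAK1 and TYK2. From the markers, CD14, PTPRC, CDH1, KRT18, KRT6A, ESR1 and PGR were named in the same way. Alternatives were pseudocounts of 1 and 0.01, no filter, a filter at 5 FPKM, rescaling to a median of 0, a threshold of 2-fold, summed entries and the other MDA-MB468 vehicle for GSK805, and, chosen after seeing the data, no filter with a pseudocount of 0.01. The scripts ran in Python 3.11.15 with scipy 1.17.1, numpy 2.4.6, matplotlib 3.10.9 and pandas 2.3.3.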

Additional observations from a re-analysis of the deposited data

Results flagged for a closer look

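TAPBP was marked because its libraries with XY018 were all above vehicle in HCC70 and all below vehicle in MDA-MB468, each with a counting interval on that side of 0. At 2.5 μM the log2 ratio in HCC70 exceeded that in MDA-MB468 by 0.41. The difference was not tested, since each condition has 1 library and the 3 libraries of a line share a vehicle.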

How the results depend on the processing

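The calls depend on the threshold. At 2-fold, 0 members were lower with 2.5 μM XY018 and 0 with XY018 and ATV in MDA-MB468, in place of 1 each, which follows from the stricter threshold. With the MDA-MB468 vehicle of the other experiment in place of its own, GSK805 gave a member median of -2.46 with 7 members lower and 2 higher, and the cause was not tested. Over all alternatives 223 other values of member counts and medians stayed within their limits, as did 916 values of single genes and related lists, while 34 of the latter moved. The sign changed in 6 values, none of a called gene, namely those of B2M, HLA-C and NLRC5 with GSK805 against the other vehicle and, after rescaling, of B2M with both compounds and 2 list medians in HCC70. For TAP2 with GSK805 the log2 ratio was -1.80 with a pseudocount of 1 and -1.63 with entries summed. No paired analysis was possible because each condition has 1 library. The depth limits TAP1, PSMB8 and PSMB9 in the GSK805 pair most.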

Other observations

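The vehicle libraries of MDA-MB468 in the 2 tables differ in the members, as values only. The log2 ratio of the GSK805 table to the XY018 table was -1.70 for TAP2, -1.72 for PSMB9, -2.06 for TAPBP, -2.17 for HLA-B, -2.62 for PSMB8, -3.07 for TAP1 and -3.27 for HLA-C. It was 1.52 for B2M and 1.16 for NLRC5. The median over 11952 genes was 0.56 with an SD of 1.14. The ratio of HLA-B to B2M, taken within a library, was 0.981 in one vehicle and 0.0759 in the other. The tables were normalized separately and hold different annotations, and their part in these differences was not tested.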
